A study of Mus musculus with 8 samples.

Results

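The 53 genes described here mark cells other than CD8 T cells that a liver cell suspension holds. They are 12 hepatocyte genes, 5 endothelial genes, 1 stromal gene, 11 monocyte and macrophage genes, 5 neutrophil genes, 6 dendritic cell genes, 4 genes of natural killer (NK) cells and their signalling adaptors, 4 B and plasma cell genes, 4 globin genes of red cells, and Cd4. Members were taken from a list by gene symbol, and 53 of 53 were found among the 22609 gene rows of the count files. The question they address is at what level markers of other cells were read in the sorted T cells, and whether that level differed between the sorted subsets.

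Livers of male C57BL/6J mice were the source of the sorted CD8 T cells. At 6 weeks of age the mice had been given αCD137, an antibody against a receptor that costimulates T cells, on days 0, 3 and 6, and livers were taken on day 8. All 8 libraries share this treatment, with no untreated group among them. The sort kept live cells that were CD45+, MHCII-, NK1.1-, TCRβ+, CD8α+ and CD4-, and of these the KLRG1+ CD127- cells, a surface profile of effector T cells. They were divided by surface CD11c, an integrin chain best known from dendritic cells and macrophages, into CD11c+ and CD11c- cells, and each subset has 4 libraries, numbered 1 to 4. Nothing in the labels ties each library to a mouse of its own, so the p-values here measure only how these samples spread, and that spread may be technical.

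Hepatocytes make most of the plasma proteins, and their RNA is abundant in liver tissue. Sinusoidal endothelial cells line the liver's blood spaces, Kupffer cells are its resident macrophages, and blood brings monocytes, neutrophils, B cells and red cells. The gate used CD45 to leave out hepatocytes, endothelium and stroma, MHCII to leave out B cells, dendritic cells and most macrophages, NK1.1 to leave out NK cells and CD4 to leave out helper T cells, and TCRβ and CD8α to keep T cells alone. Of the 53 genes, 8 (Apoe, Trf, Ass1, Pecam1, Cd68, Cst3, Tyrobp and Fcer1g) can also be transcribed by T cells, and sums are given with and without them.

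Levels are given as CPM, gene counts scaled to the library's total of gene reads and TMM factors that correct for the makeup of each library. Gene reads ranged from 5090345 to 7093163 per library, so that 3 reads, the limit that a count of 0 allows, stand for 0.419 to 0.586 CPM. The labels were checked by T cell genes and by Itgax, the gene of the marker used for the sort. The genes of KLRG1 and CD127 were not part of that check. The 15 T cell genes of a reference list, among them Cd3e, Cd8a and Lck, were at 33.4 CPM or more in every library and summed to 14526 ± 900 CPM in CD11c+ and 14776 ± 391 CPM in CD11c- cells (SD, n = 4 each). Itgax, which encodes CD11c, was at 243 ± 76.3 CPM in CD11c+ and 10.1 ± 5.63 CPM in CD11c- cells (log2 fold change 4.60, edgeR adjusted p = 0.000136). The 2 libraries numbered 3 carried the highest neutrophil and globin levels of their subsets. Sums over the list, the median fold change and the tested genes whose values rest on them are also given without them.

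Some markers have near-identical copies, and alignments at more than 1 place were counted in a row of their own and not assigned to genes. The plot of unique words gives, for each such marker, the share of its 50-base words, as long as the reads, that occur in no other annotated gene. Both α-globin genes and both lysozyme genes are shown because they are pairs of near copies with both genes on the list and in the reference. The β-globin genes Beta-s and Hbb-b1 are also both on the list, but Hbb-b1 was not found in the reference. Each stretch is 120 coding bases from 5′ to 3′ on the gene's strand, from GENCODE vM21 (build GRCm38), and capitals mark the bases at which the 2 genes of a pair differ. The counts were made on mm9, so the coordinates are those of the reference and not of the counted models.
Hba-a1: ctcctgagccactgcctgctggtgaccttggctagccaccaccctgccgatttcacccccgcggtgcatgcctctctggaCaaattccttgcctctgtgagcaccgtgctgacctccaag
Hba-a2: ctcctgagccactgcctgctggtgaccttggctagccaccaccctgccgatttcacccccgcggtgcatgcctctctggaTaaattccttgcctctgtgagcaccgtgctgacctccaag
Lyz1: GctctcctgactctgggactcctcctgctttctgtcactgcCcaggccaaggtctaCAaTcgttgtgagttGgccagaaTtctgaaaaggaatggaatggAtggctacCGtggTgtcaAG
Lyz2: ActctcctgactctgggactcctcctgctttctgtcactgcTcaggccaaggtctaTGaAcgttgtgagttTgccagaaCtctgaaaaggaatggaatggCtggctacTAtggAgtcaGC
The α-globin stretches are in exon 3 of 3, at chr11:32284263-32284382 for Hba-a1 and chr11:32297080-32297199 for Hba-a2, both on the plus strand. The lysozyme stretches are in exon 1 of 4 on the minus strand, at chr10:117292713-117292832 for Lyz1 and chr10:117282117-117282236 for Lyz2. Over 426 coding bases Hba-a1 and Hba-a2 differed at 1 base (99.8% identity), with an identical run of 380 bases. Lyz1 and Lyz2 differed at 22 of 444 coding bases (95.0% identity), 13 of them in the stretch shown, and their longest identical run was 118 bases. Hence 83.9% of Lyz1 words and 84.6% of Lyz2 words were unique, against 27.7% of Hba-a1 words and 10.7% of Hba-a2 words. The β-globin row Beta-s (Hbb-bs in GENCODE) had 46.8% unique words and Ass1 had 61.4%. Levels of these genes are uncertain for that reason, and counts of the pairs are compared within a gene only.

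**Figure D1:**
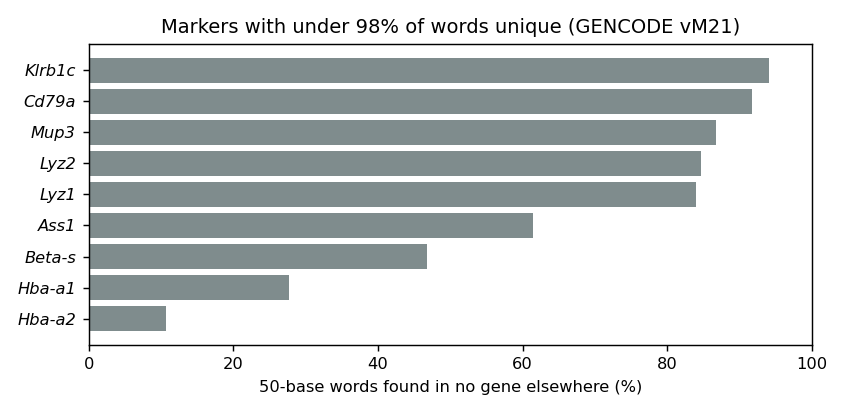
Share of each marker's 50-base words (%, x axis) that occur in no other gene of GENCODE vM21, for the 9 markers under 98% (y axis). Hba-a2 had 10.7% and Hba-a1 27.7%, whereas Klrb1c had 94.0%.

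In the comparison of CD11c+ with CD11c- cells, no marker rose or fell at an adjusted p under 0.05 in edgeR. The filter on low counts kept 18 of the 53 markers, 31 more had reads but were not tested, and 4 (Cps1, Hbb-b1, Hba-a1 and Hba-a2) had no read in any library. Of the 18, 0 passed the adjusted test of edgeR, which 0.0496% of the 10073 tested genes passed. At an unadjusted p under 0.05 there were 2, Dnase1l3 and Ass1, both lower in CD11c+ cells, against 4.70% of all tested genes. DESeq2 called 1 marker, Dnase1l3, against 0.461% of the genes to which it gave an adjusted p, and limma voom with quality weights called the same gene, against 0.189% of tested genes. In Dnase1l3 and Ass1 every CD11c+ library lay below every CD11c- library, as in 1.85% of tested genes, and no marker had every CD11c+ library above, as in 1.60%. Because the filter leaves mostly the markers with more reads, these counts describe the tested markers and not the list.

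The plot of log2 fold changes shows the 18 tested markers. Their median log2 fold change was 0.33, against 0.01 over all tested genes. Point estimates were above 0 for 13 and below 0 for 5. Without both libraries numbered 3 the median of the same 18 markers was 0.02, with 10 above and 8 below 0, against 0.00 over all genes then tested. Beside the members, 184 further genes of the same classes were read from longer lists, of which 43 were tested. Of these, edgeR called 1, against 0.0496% of all tested genes. At an unadjusted p under 0.05 in edgeR there were 2 of 43, about the share over all tested genes, 4.70%. DESeq2 called 2, against 0.461% of the genes to which it gave an adjusted p, and limma voom called 1, against 0.189%. These calls were Ly6c2 and Ccr2, listed here under monocytes and macrophages, which CD8 T cells can also express. The further genes of the other classes held 0 by each of these tests.

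**Figure D2:**
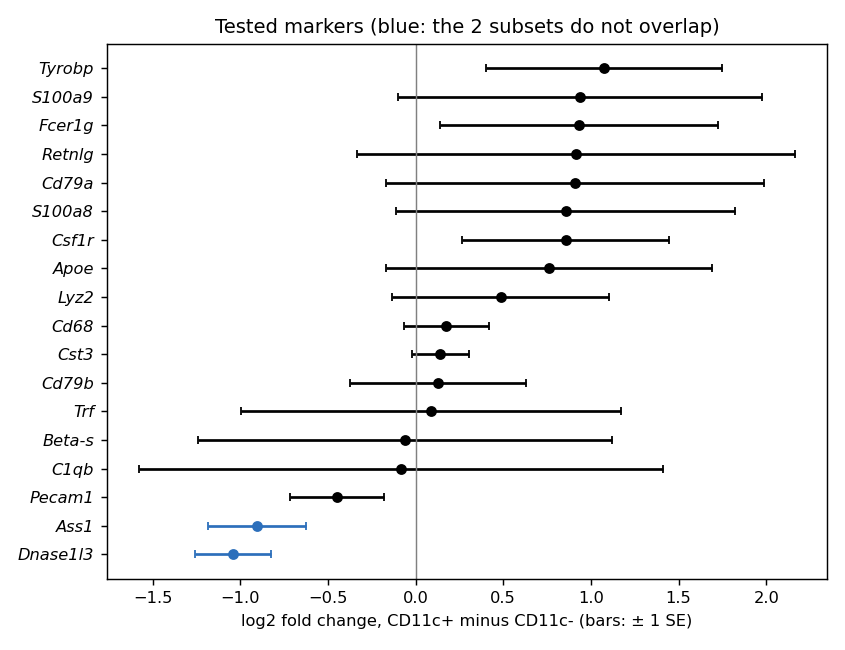
Log2 fold change of the 18 tested markers (points, x axis, CD11c+ minus CD11c-, edgeR) with 1 standard error to each side (bars). Dnase1l3 at -1.04 and Ass1 at -0.90, in blue, are the markers whose subsets do not overlap, and most of the other bars cross 0.

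All 53 markers summed to 649 ± 352 CPM in CD11c+ and 590 ± 144 CPM in CD11c- libraries (SD, n = 4 each). Single libraries ranged from 408 to 1157 CPM, or 0.0408% to 0.116% of gene reads after TMM scaling. Without the 8 genes that T cells can transcribe, the sums were 322 ± 280 and 288 ± 127 CPM. The highest single library was CD11c+ replicate 3 in each of these sums, and the subsets overlapped. Without both libraries numbered 3 the order of the means turned in both, to 480 ± 117 against 529 ± 93.9 CPM for all markers and to 185 ± 74.2 against 229 ± 55.3 CPM without the 8 genes (SD, n = 3 each). Per kilobase of exon, the median marker stood at 0.528 CPM (52 markers with a length) and the median T cell reference gene at 255 CPM per kilobase. These sums cover the listed genes alone and do not give the share of RNA that came from other cells. In bulk libraries, fewer cells of a type and less RNA per cell cannot be told apart. The plot of class sums gives each library.

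**Figure D3:**
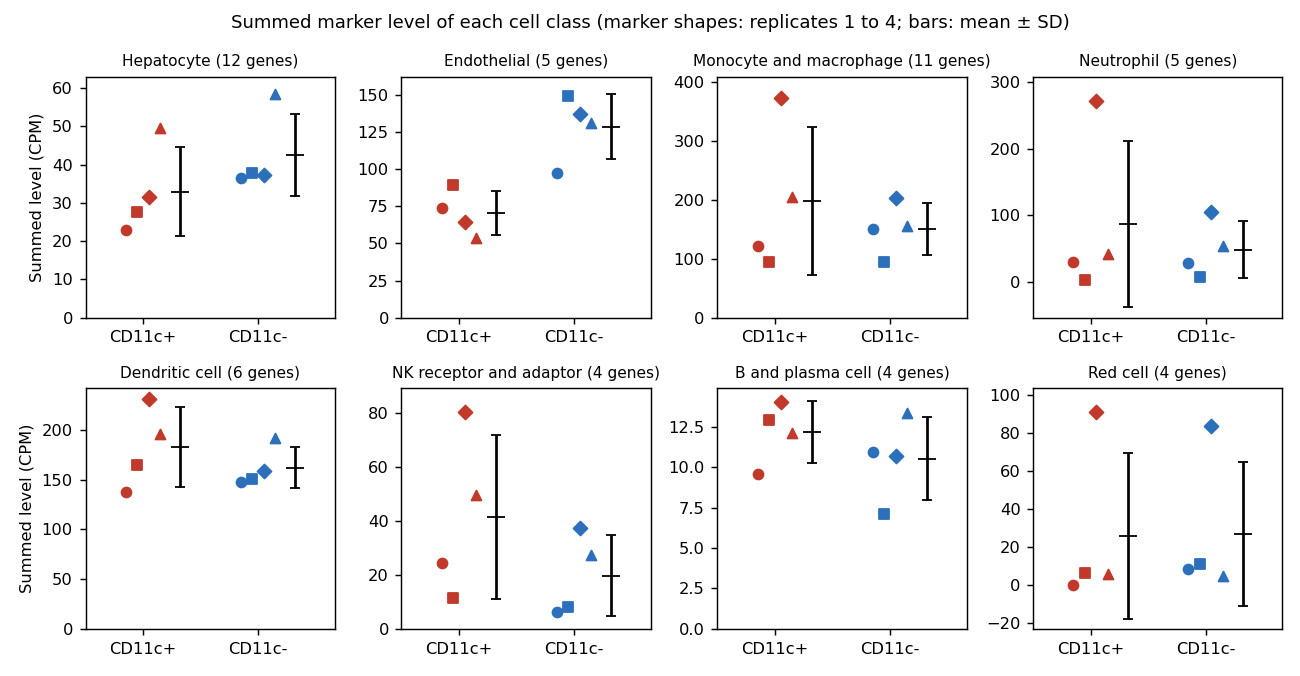
Summed level of the markers of each class (CPM, y axis) by subset, with red for CD11c+ and blue for CD11c-. Circles, squares, diamonds and triangles stand for replicates 1 to 4, and the black bars give the mean ± SD (n = 4), which reach below 0 where 1 library stands far above the others. Endothelial markers are the class without overlap, and most of their sum is Dnase1l3. Pecam1 overlaps between the subsets, and Stab2, Clec4g and Kdr are near 0. The diamonds of replicate 3 stand above the other libraries of their subset for neutrophil and red cell markers.

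The liver's most abundant secretory transcripts were close to absent. Alb, the gene of serum albumin, was at 0, 4.36, 3.56 and 1.71 CPM in CD11c+ replicates 1 to 4 and at 0, 1.96, 1.50 and 1.41 CPM in CD11c- replicates 1 to 4. Replicate 1 had no Alb read in either subset, and the subsets overlapped. The apolipoprotein genes Apoa1, Apoa2, Apoc1 and Apoc3, the thyroxine carrier Ttr, the fibrinogen chain Fgb and the urinary protein gene Mup3 stayed at or below 1.93 CPM in every library, and Cps1, the entry enzyme of the urea cycle, had no read. Apoa2 had reads in all 4 CD11c- libraries, at 1.05 to 1.88 CPM, and in 2 of 4 CD11c+ libraries, at 0.889 and 1.24 CPM. Without Apoe, Trf and Ass1, the class summed to 4.59 ± 2.70 CPM in CD11c+ and 5.52 ± 2.42 CPM in CD11c- cells.

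Apoe, the lipid carrier that macrophages also make, was at 12.3, 0.174, 8.00 and 9.02 CPM in CD11c+ and at 11.1, 1.40, 2.44 and 2.46 CPM in CD11c- replicates 1 to 4. Replicate 1 was the highest and replicate 2 the lowest of each subset (log2 fold change 0.76, SE 0.93, edgeR adjusted p = 0.992). Trf, which encodes the iron carrier transferrin, was at 0.195, 5.75, 4.44 and 17.7 CPM in CD11c+ and at 0.371, 4.47, 1.69 and 20.05 CPM in CD11c- replicates 1 to 4. Replicate 4 was the highest and replicate 1 the lowest in both subsets, and the subsets did not differ beyond this spread (log2 fold change 0.09, SE 1.09, adjusted p = 0.999).

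Ass1, a urea cycle enzyme of hepatocytes that other cells use to make arginine, had the highest level per length of the hepatocyte markers, 8.27 CPM per kilobase over all libraries. It was at 9.56, 14.5, 14.2 and 17.3 CPM in CD11c+ and at 22.8, 25.0, 28.0 and 28.3 CPM in CD11c- replicates 1 to 4. Every CD11c+ library was below every CD11c- library, with means of 13.9 ± 3.19 and 26.0 ± 2.61 CPM. The difference did not pass over all genes (log2 fold change -0.90, SE 0.28, unadjusted p = 0.00683, edgeR adjusted p = 0.923), nor in DESeq2 (adjusted p = 0.249). In the same libraries the 9 hepatocyte markers other than Ass1, Apoe and Trf were at or under 4.36 CPM. Apoe reached 12.3 CPM and Trf 20.05 CPM, and Ass1 shares words with the annotated copy Gm5424. Of 38 further hepatocyte genes, 9 had no read and 8 were tested, with no call. The 38 genes summed to 40.8 ± 24.2 CPM in CD11c+ and 38.2 ± 37.5 CPM in CD11c- cells. The highest library was CD11c- replicate 4, at 89.35 CPM. Among the further genes the haemoglobin scavenger gene Hp was at 9.22 ± 14.8 and 3.36 ± 3.95 CPM in CD11c+ and CD11c- cells. Hp reached 31.1 CPM in CD11c+ replicate 3 and had no read in CD11c+ replicates 1 and 2. Without both libraries numbered 3 its means were 1.92 ± 3.32 and 3.23 ± 4.83 CPM (n = 3 each). CD11c+ replicate 3 was also the highest library of the neutrophil marker S100a8, and not of the sum of the 38 genes. Which cells held the Hp RNA was not tested.

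Endothelial markers divided into Dnase1l3 and Pecam1, which were present in every library, and the rest, which were near 0. Dnase1l3, the gene of a secreted nuclease that sinusoidal endothelium, macrophages and dendritic cells are known to make, was at 56.0, 61.2, 38.6 and 35.6 CPM in CD11c+ and at 73.0, 111, 105 and 105 CPM in CD11c- replicates 1 to 4. The highest CD11c+ library was thus below the lowest CD11c- library, and the mean was 2.06-fold higher in CD11c- cells (98.5 ± 17.2 against 47.9 ± 12.6 CPM). The log2 fold change was -1.04 (SE 0.22) with an unadjusted p of 0.000414 and an adjusted p of 0.215 in edgeR. DESeq2 gave an adjusted p of 0.00270 and limma voom one of 0.00737, whereas without both libraries numbered 3 edgeR gave a log2 fold change of -0.93 and an adjusted p of 0.987. Leaving out 1 library at a time kept the log2 fold change between -1.19 and -0.93 and the adjusted p between 0.163 and 0.772.

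Markers that define sinusoidal endothelium were at or near 0 in the same libraries. Stab2, a scavenger receptor of these cells, had 3 reads in all 8 libraries together, Clec4g, a lectin of theirs, had 1 and Kdr, the receptor of vascular endothelial growth factor, had 3. They summed to 0.239 ± 0.369 CPM in CD11c+ and 0.0350 ± 0.0699 CPM in CD11c- cells, and the highest library, at 0.778 CPM, was CD11c+ replicate 4. The 44 listed genes other than Dnase1l3 and those that T cells can transcribe summed to 274 ± 289 CPM in CD11c+ and 190 ± 123 CPM in CD11c- cells, and to 134 ± 87.3 and 133 ± 56.8 CPM without both libraries numbered 3. Which cells held the Dnase1l3 RNA was not tested.

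Pecam1, the adhesion molecule CD31 of endothelium, platelets and many leukocytes, was at 17.8, 28.1, 26.0 and 17.4 CPM in CD11c+ and at 24.7, 37.9, 32.5 and 26.6 CPM in CD11c- replicates 1 to 4. Replicate 2 was the highest of each subset, and the subsets overlapped (log2 fold change -0.45, SE 0.27, edgeR adjusted p = 0.991). Of 20 further endothelial genes, 7 had no read and 3 were tested, with no call. Ehd3, a membrane trafficking gene, was at 176 ± 20.8 and 175 ± 11.5 CPM in CD11c+ and CD11c- cells. It made up most of the sum of the 20 genes, which was 198 ± 19.2 and 191 ± 13.3 CPM. Its highest library had 1.33 times the level of its lowest, and which cells held the Ehd3 RNA was not tested. Nrp1, a co-receptor of vascular growth factor, was at 13.9 ± 3.82 and 10.5 ± 4.51 CPM.

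Stroma was represented by Dcn, a matrix proteoglycan of fibroblasts and stellate cells, which had 2 reads in 1 library, CD11c- replicate 3 (0.376 CPM), and none elsewhere. Of 16 further stromal and biliary genes, 11 had no read and 2 were tested, with no call. Epcam, the epithelial adhesion molecule of bile ducts, was at 5.04 ± 3.99 CPM in CD11c+ and 11.7 ± 3.63 CPM in CD11c- cells (log2 fold change -1.21, edgeR adjusted p = 0.991). Ecm1, a matrix protein gene, was at 2.21 ± 0.841 and 3.24 ± 2.08 CPM.

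Monocyte and macrophage markers were present in every library through Lyz2, Cd68 and Csf1r, at levels that varied widely within a subset. Lyz2, the lysozyme of myeloid cells, was at 18.3, 48.3, 264 and 129 CPM in CD11c+ and at 72.9, 33.0, 142 and 81.4 CPM in CD11c- replicates 1 to 4. Replicate 3 was the highest of both subsets, and the highest library had 14.4 times the level of the lowest. The subsets did not differ beyond that spread (log2 fold change 0.48, SE 0.62, edgeR adjusted p = 0.992), and without both libraries numbered 3 the log2 fold change was 0.06. Its near copy Lyz1 had 10 reads in CD11c+ replicate 3, 1 in CD11c+ replicate 4 and none elsewhere.

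Csf1r, the growth factor receptor of monocytes and macrophages, was at 10.3, 2.61, 23.5 and 16.3 CPM in CD11c+ and at 9.27, 3.50, 7.13 and 9.32 CPM in CD11c- replicates 1 to 4. Replicate 2 was the lowest of each subset and CD11c+ replicate 3 the highest of all (log2 fold change 0.86, SE 0.59, edgeR adjusted p = 0.991). Cd68, a lysosomal protein abundant in macrophages, was at 91.2, 41.1, 74.0 and 47.4 CPM in CD11c+ and at 60.4, 58.0, 51.3 and 54.7 CPM in CD11c- replicates 1 to 4. CD11c- libraries lay close together and within the CD11c+ range (log2 fold change 0.18, SE 0.25, adjusted p = 0.992). Unlike Lyz2 and Csf1r, Cd68 was highest in replicate 1.

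Kupffer cell markers were at or near 0. Clec4f, a lectin of Kupffer cells, had 9 reads and the scavenger receptor Marco had 5, all in CD11c+ replicate 4. Vsig4, a complement receptor of resident macrophages, had 9 reads in CD11c+ replicate 2, 4 in CD11c+ replicate 4 and none in the CD11c- libraries. The complement genes C1qa, C1qb and C1qc were each at or under 4.40 CPM. C1qb was at 0, 0, 3.73 and 2.96 CPM in CD11c+ and at 2.78, 0, 0 and 4.40 CPM in CD11c- replicates 1 to 4 (log2 fold change -0.08, edgeR adjusted p = 0.999), so that replicate 4 had reads and replicate 2 had none in both subsets. Cd14, the co-receptor for endotoxin, ranged from 0 to 4.80 CPM, with its maximum in CD11c+ replicate 3.

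The 11 markers of the class summed to 198 ± 126 CPM in CD11c+ and 150 ± 44.1 CPM in CD11c- cells, and to 135 ± 123 and 94.2 ± 46.9 CPM without Cd68. The difference of 47.7 CPM between the subset means became 6.73 CPM without both libraries numbered 3 and -10.6 CPM without CD11c+ replicate 3 alone. Of 27 further genes of the class, 11 were tested and 1, Ly6c2, was called by edgeR. Another, Ccr2, reached an unadjusted p of 0.000470 and an adjusted p of 0.225, and DESeq2 called both. Ly6c2, a surface protein of inflammatory monocytes and of effector and memory CD8 T cells, was at 541, 779, 1051 and 759 CPM in CD11c+ and at 291, 214, 381 and 298 CPM in CD11c- replicates 1 to 4. It rose 2.64-fold in CD11c+ cells (log2 fold change 1.40, SE 0.20, edgeR adjusted p = 0.0230). Its level is uncertain because near copies exist in the Ly6 family. Without both libraries numbered 3 the adjusted p was 0.1002, and it ranged from 0.0104 to 0.131 when 1 library at a time was left out. It stayed under 0.05 only without CD11c+ replicate 1. Ccr2, the chemokine receptor of the same cell types, was at 456 ± 125 CPM in CD11c+ and 199 ± 72.0 CPM in CD11c- cells, again with no overlap. In the same libraries the subsets overlapped for each of the 4 tested monocyte and macrophage markers of the list.

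**Figure D4:**
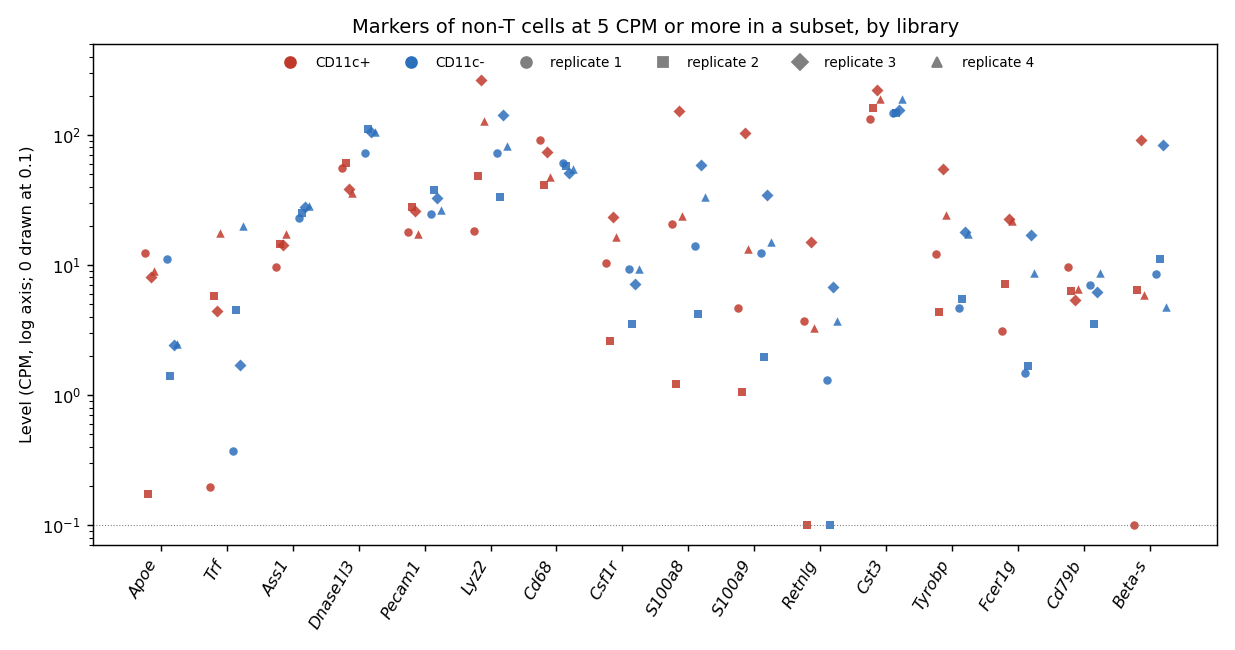
Level of the 16 markers with a mean of 5 CPM or more in a subset (CPM, log axis, with 0 drawn at 0.1), with red for CD11c+ and blue for CD11c-. Each point is 1 library and its shape the replicate number. Dnase1l3 and Ass1 separate by colour, whereas S100a8, S100a9, Lyz2, Tyrobp and Beta-s have replicate 3 on top in both colours.

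Neutrophil markers differed widely between libraries of the same subset. S100a8 and S100a9 encode the partners of calprotectin, which fills the cytoplasm of neutrophils. S100a8 was at 20.5, 1.22, 153 and 23.8 CPM in CD11c+ and at 13.9, 4.19, 58.8 and 33.1 CPM in CD11c- replicates 1 to 4. S100a9 was at 4.68, 1.05, 103 and 13.2 CPM in CD11c+ and at 12.2, 1.96, 34.7 and 15.1 CPM in CD11c- replicates 1 to 4. Both genes were highest in replicate 3 and lowest in replicate 2 of each subset, and S100a8 spanned a 125-fold range from CD11c+ replicate 2 to CD11c+ replicate 3.

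Retnlg, a secreted resistin-like protein of neutrophils, was likewise highest in replicate 3 and lowest in replicate 2 of each subset, at 3.71, 0, 15.1 and 3.27 CPM in CD11c+ and at 1.30, 0, 6.76 and 3.69 CPM in CD11c- replicates 1 to 4. The log2 fold changes of S100a8, S100a9 and Retnlg were 0.86 (SE 0.97), 0.94 (SE 1.04) and 0.91 (SE 1.25), with edgeR adjusted p-values from 0.991 to 0.992. Without both libraries numbered 3 they were -0.17, -0.62 and 0.48. Ngp and Camp, genes of the granules that neutrophils form in bone marrow, had reads in CD11c- replicates 3 and 4 and at most 1.07 CPM in CD11c+ cells, and Ngp reached 4.32 CPM in CD11c- replicate 3. The class summed to 28.9, 2.27, 272 and 41.7 CPM in CD11c+ and to 27.4, 6.15, 105 and 53.6 CPM in CD11c- replicates 1 to 4. The difference of the means, 38.1 CPM, was -4.80 CPM without both libraries numbered 3. Of 16 further neutrophil genes, 3 had no read and 5 were tested, with no call. Mmp9, a granule protease, was at 19.9 CPM in CD11c+ replicate 3 and 8.45 CPM in CD11c- replicate 3, and at or below 3.87 CPM in the other 6 libraries, whose means were 0.830 ± 1.44 CPM in CD11c+ and 1.57 ± 2.04 CPM in CD11c- cells (n = 3 each). G0s2, a lipase inhibitor, was at 10.7 ± 2.63 and 12.998 ± 2.26 CPM in CD11c+ and CD11c- cells and did not follow that order.

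Dendritic cell markers bear on the gate in a particular way, since CD11c is their classical surface protein. Cst3, the protease inhibitor cystatin C that most cells make and dendritic cells make in quantity, was at 133, 161, 220 and 189 CPM in CD11c+ and at 147, 147, 156 and 187 CPM in CD11c- replicates 1 to 4. The subsets overlapped (log2 fold change 0.14, SE 0.16, edgeR adjusted p = 0.991), and without both libraries numbered 3 the log2 fold change was 0.00. It was the most even of the 16 more abundant markers, with a ratio of 1.66 between the highest and the lowest library. The chemokine receptor Xcr1 of cross-presenting dendritic cells was at 4.68, 4.36, 3.73 and 1.24 CPM in CD11c+ and at 0, 1.12, 1.50 and 1.41 CPM in CD11c- replicates 1 to 4. CD11c+ replicates 1 to 3 were above every CD11c- library and CD11c+ replicate 4 was not, and at 102 reads in all the gene was not tested.

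Clec9a, a lectin of the same dendritic cells, did not follow Xcr1, with 5 reads in CD11c+ replicate 4 and 1 in CD11c- replicate 4. Flt3, the growth factor receptor of dendritic cell precursors, had 28 reads in CD11c+ replicate 3 (4.98 CPM) and none elsewhere. Zbtb46, a transcription factor of classical dendritic cells, ranged from 0 to 3.58 CPM, and Siglech, a lectin of plasmacytoid cells, from 0 to 1.09 CPM. Without Cst3 the class summed to 6.60 ± 2.90 CPM in CD11c+ and 2.74 ± 1.97 CPM in CD11c- libraries (SD, n = 4 each). Single libraries ranged from 4.36 to 10.7 CPM in CD11c+ and from 0 to 4.40 CPM in CD11c- cells, so the subsets overlapped. The highest was CD11c+ replicate 3. Of 16 further dendritic cell genes, 7 were tested, with no call. Flt3l, the ligand of FLT3, which T cells also make, was at 55.7 ± 8.11 and 57.1 ± 9.38 CPM in CD11c+ and CD11c- cells. Pacsin1, an endocytosis adaptor abundant in plasmacytoid cells, was at 18.7 ± 10.9 CPM in CD11c+ and 33.3 ± 1.44 CPM in CD11c- cells, with no overlap (log2 fold change -0.83, edgeR adjusted p = 0.991).

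Tyrobp and Fcer1g encode DAP12 and the Fc receptor γ chain, the adaptors through which NK cells and myeloid cells signal. Tyrobp was at 12.1, 4.36, 55.1 and 24.1 CPM in CD11c+ and at 4.63, 5.45, 18.0 and 17.4 CPM in CD11c- replicates 1 to 4. Fcer1g was at 3.12, 7.15, 22.6 and 21.9 CPM in CD11c+ and at 1.48, 1.68, 17.1 and 8.62 CPM in CD11c- replicates 1 to 4. Replicates 3 and 4 of each subset were above replicates 1 and 2 for both genes, and the subsets overlapped. Their log2 fold changes were 1.07 (SE 0.67) and 0.93 (SE 0.79), with an edgeR adjusted p of 0.991 for each, and 0.56 and 1.45 without both libraries numbered 3.

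Klrb1c, which encodes the NK1.1 antigen that the gate left out, was at 8.98, 0, 0.711 and 3.11 CPM in CD11c+ and at 0.185, 0.979, 1.69 and 1.41 CPM in CD11c- replicates 1 to 4. CD11c+ replicate 1, with 46 reads, was the highest, in contrast to the adaptors, which were highest in replicate 3. Ncr1, the NK receptor NKp46, had 10 reads in CD11c+ replicate 3, 2 in CD11c+ replicate 4, 2 in CD11c- replicate 3 and none elsewhere. The 4 genes summed to 41.3 ± 30.3 CPM in CD11c+ and 19.8 ± 15.0 CPM in CD11c- cells, and Klrb1c and Ncr1 alone to 3.72 ± 3.79 and 1.16 ± 0.788 CPM. Of 14 further genes of NK and innate-like lymphocytes, 4 had no read and 4 were tested, with no call. Rora, a nuclear receptor of innate lymphoid cells and of some T cells, was at 27.4 ± 7.71 and 27.3 ± 6.83 CPM, and Klrb1f, a lectin-like receptor, at 13.03 ± 7.33 and 11.04 ± 4.17 CPM in CD11c+ and CD11c- cells.

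B cell markers were low, and of them Cd79b was present in every library. Cd79b, one chain of the B cell receptor's signalling unit, was at 9.56, 6.27, 5.33 and 6.53 CPM in CD11c+ and at 7.04, 3.50, 6.20 and 8.62 CPM in CD11c- replicates 1 to 4. Cd79a, the other chain, was at 0, 6.62, 2.84 and 4.51 CPM in CD11c+ and at 3.15, 1.12, 0.188 and 2.99 CPM in CD11c- replicates 1 to 4. The subsets overlapped for both (log2 fold changes 0.13 and 0.91, SE 0.50 and 1.08, edgeR adjusted p = 0.999 and 0.991). Cd79a had no read in the library in which Cd79b was highest, CD11c+ replicate 1. Ms4a1, the surface protein CD20, ranged from 0 to 1.78 CPM. Igj, the joining chain of secreted antibodies, was at 4.09 and 4.13 CPM in the replicates 3 of CD11c+ and CD11c- cells and at or below 2.10 CPM in the other libraries. The 4 genes summed to 12.2 ± 1.90 CPM in CD11c+ and 10.5 ± 2.57 CPM in CD11c- cells. Of 19 further B and plasma cell genes, 1 had no read and 3 were tested, with no call. Cd72, a co-receptor of B cells, was at 20.3 ± 6.51 and 20.003 ± 3.96 CPM, and Tnfrsf13c, the receptor of the survival factor BAFF, at 8.05 ± 8.33 and 5.68 ± 3.09 CPM in CD11c+ and CD11c- cells.

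Red cells have no nucleus but carry globin RNA while young. Beta-s, the β-globin row, was at 0, 6.45, 91.0 and 5.91 CPM in CD11c+ and at 8.53, 11.2, 83.7 and 4.75 CPM in CD11c- replicates 1 to 4. The replicates 3 of both subsets stood far above the other 6 libraries, which lay between 0 and 11.2 CPM. The subsets did not differ beyond that spread (log2 fold change -0.06, SE 1.18, edgeR adjusted p = 0.999), and the log2 fold change was -0.98 without both libraries numbered 3 (adjusted p = 0.987). Hba-a1, Hba-a2 and Hbb-b1 had no read in 46468360 gene reads. As the sequences above show, most 50-base words of both α-globin genes fit the other copy, and how many of their reads were in the row of alignments at more than 1 place was not tested. Unique words of Hbb-b1 were not counted, so whether its lack of reads has the same limit was not tested. Of 18 further red cell and platelet genes, 10 had no read and 0 were tested. Alas2, the first enzyme of haem synthesis in red cell precursors, was at 1.18 ± 0.834 and 1.75 ± 1.02 CPM, and Itga2b, a platelet integrin chain, at 0.900 ± 1.26 and 0.703 ± 1.07 CPM in CD11c+ and CD11c- cells.

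Cd4, the co-receptor of helper T cells that the gate left out, had 10 reads in CD11c+ replicate 4, 2 in CD11c- replicate 2, 5 in CD11c- replicate 4 and none elsewhere. Its highest level was 1.56 CPM, against 1220 CPM for Cd8a in the same library.

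Many markers were highest in libraries of the same number in both subsets. Of the 16 markers with a mean of 5 CPM or more in a subset, 13 (81.2%) were highest in the same number in both subsets, against 31.4% of the 9181 tested genes at that level. For 7 of the 16 (43.8%), namely Lyz2, S100a8, S100a9, Retnlg, Tyrobp, Fcer1g and Beta-s, that number was 3 in both subsets, against 6.87% of those genes. Apoe and Cd68 were highest in number 1, Dnase1l3 and Pecam1 in number 2 and Trf and Ass1 in number 4. The exceptions were Csf1r, Cst3 and Cd79b. Of the 49 markers with reads, 15 had their highest level in CD11c+ replicate 3. The markers share libraries and some share cell types, so these counts are a description. The labels do not say that libraries of the same number came from the same animals or the same day, and the T cell reference genes varied 1.18-fold to 2.88-fold between the highest and the lowest library. The plot of same-numbered libraries shows 4 markers.

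**Figure D5:**
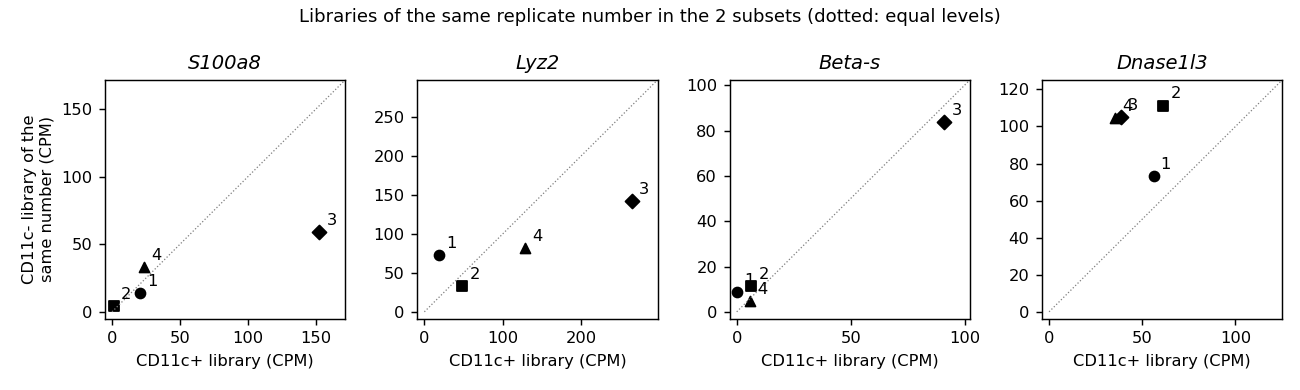
Level of 4 markers (CPM) in the CD11c+ library (x axis) against the CD11c- library of the same number (y axis), with the number beside each point and a dotted line at equal levels. S100a8, Lyz2 and Beta-s have number 3 highest on both axes, and for Dnase1l3 all 4 points lie above the line.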

How the data were processed

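RNA of 8 sorted samples was amplified by a modified SMART-seq2 protocol and read as single 50-base reads, per the labels' protocols. The deposited values are raw read counts per gene, 1 file per library, made with TopHat2 2.0.8b and HTSeq on mm9, per the submitters' processing notes. Gene annotation and strand setting: not given in the sources used here. Reads of overlapping or antisense genes therefore cannot be separated. The 5 summary rows stayed out. Of uniquely placed reads, 63.1% to 67.1% fell in no gene. Alignments at more than 1 place made up 50.3% to 53.6% of the counts summed over gene and summary rows. No pair of libraries of a subset differed by read sampling alone (chi-square per degree of freedom at least 9.43).

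Counts were tested as CD11c+ minus CD11c- by the quasi-likelihood test of edgeR 4.0.16 (R 4.3.3) after filterByExpr and TMM scaling, with Benjamini-Hochberg adjustment over 10073 genes at 0.05. The steps were tested on simulated data. Sums of markers have no test. Alternatives were other scalings and filters, a replicate block, DESeq2 1.42.0, limma 3.58.1 voom, edgeR with legacy=FALSE, leaving out each library and, chosen after seeing the data, leaving out both libraries numbered 3. Members and lists were chosen with earlier results of these data known. The rule for named genes gives every member by name, those with a mean of at least 5 CPM in a subset with each library's value, and of each further list those called plus the 2 of highest mean, of which 1 gene is not reported here. Of 189 further genes, 184 matched. Exon lengths and words came from GENCODE vM21. Replicate numbers were checked for pairing: deviations of same-numbered libraries correlated at 0.0964, 0.167, 0.119 and 0.190, and not every value exceeded 0.1, so the design has no block.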

Additional observations from a re-analysis of the deposited data

Results flagged for a closer look

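Across 86 groups of 4 libraries, 12 held 1 library that stood apart. Its gap to the nearest of the other 3, as a share of the whole range, was above Dixon's critical value at the 95% level. That level stands for about 1 in 20 groups of independent, normally distributed values. Levels of rare transcripts are skewed, and some groups share genes, such as Beta-s and the globin sum. The 12 flags can therefore not be set against that rate. Of these, 6 were in CD11c+ replicate 3: S100a8 at 153 CPM, S100a9 at 103 CPM, the summed neutrophil markers at 272 CPM, Beta-s at 91.0 CPM, the summed globin rows, which hold reads of Beta-s alone, at the same 91.0 CPM, and Mmp9 at 19.9 CPM. In CD11c- replicate 3, Beta-s stood apart at 83.7 CPM, as did the same value for the summed globin rows. Values without both libraries numbered 3 are given beside each of these genes in the results, as log2 fold changes or, for Mmp9, as means.

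In CD11c- replicate 1, Apoe stood above the other CD11c- libraries at 11.1 CPM, and the number of genes with a read stood below them at 10783. Tnfrsf13c reached 20.5 CPM in CD11c+ replicate 1. The summed hepatocyte markers reached 58.6 CPM in CD11c- replicate 4, the library with the highest Trf level of its subset.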

How the results depend on the processing

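No marker was called by edgeR under any scaling, filter, block or omission tried, whereas DESeq2 and limma voom each called 1, Dnase1l3. The number of genes called over all genes, 5, was 12 with no filter, 8 with at least 5 CPM in 4 libraries, 13 with the replicate block, 32 in DESeq2, 19 in limma voom, 11 with legacy=FALSE, 1 without both libraries numbered 3, and 1 to 5 when 1 library at a time was left out. The numbers do not pair the samples by the rule used, although every library correlated best with its own number. Under the replicate block Ccr2 passed (adjusted p = 0.00586), and no member's call changed. Without Ass1, the most abundant hepatocyte member, the subset difference of the hepatocyte sum was 2.47 CPM (from -9.68). Without Dnase1l3, the most abundant endothelial member, that of the endothelial sum was -7.89 CPM (from -58.5). Each shift is the omitted member's own difference between the subsets. Why the number of called genes changed was not tested.

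Of 18 tested members, 9 kept the sign of their log2 fold change under every alternative, Dnase1l3, Ass1 and Pecam1 among them. Signs turned without both libraries numbered 3 for Trf (-0.072), S100a8 (-0.17), S100a9 (-0.62) and Klrb1f (-0.11). With the replicate block they turned for S100a9 (-0.10), Hp (-0.080), Mmp9 (-0.47), Rora (-0.0047) and Cd72 (-0.021). In limma voom they turned for Cd68 (-0.021), C1qb (2.23), Ehd3 (-0.012), Nrp1 (-0.065), Ecm1 (0.070), Mmp9 (-0.27), Rora (-0.28) and Cd72 (-0.33). With legacy=FALSE they turned for C1qb (0.037) and Cd72 (-0.0024), and with no filter for Ehd3 (-0.0048) and Rora (-0.0084). Leaving out 1 library at a time gave ranges that cross 0 for Trf (-0.94 to 1.66), Lyz2 (-0.34 to 0.87), Cd68 (-0.052 to 0.33), C1qb (-0.82 to 0.85), S100a8 (-0.86 to 1.52), S100a9 (-1.33 to 1.63), Retnlg (-0.33 to 1.71), Cd79b (-0.082 to 0.30), Beta-s (-2.70 to 1.64), Hp (-0.79 to 2.55), Ehd3 (-0.067 to 0.064), Mmp9 (-1.93 to 1.80), Flt3l (-0.10 to 0.069), Rora (-0.13 to 0.16), Klrb1f (-0.15 to 0.51), Cd72 (-0.19 to 0.17) and Tnfrsf13c (-0.54 to 0.91). None of these genes passed the test in edgeR.

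Depth limits the rarest markers: a count of 0 allows up to 3 reads, or 0.419 to 0.586 CPM in a library, and levels of that order rest on a few reads. Intervals from counts cover counting error only, and amplified reads carry no molecular identifiers.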
